A study of Meleagris gallopavo with 24 samples.

Results

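The data described here are the genes whose expression changed in the same direction in the heart and in the liver of turkeys (Meleagris gallopavo) fed salinomycin (Sal). Sal is a polyether ionophore that carries monovalent cations across membranes and is fed to poultry against coccidia. In muscle and liver of sensitive animals, ionophores are known for disturbing the sodium, potassium and calcium balance of the cell and the work of mitochondria. A gene belonged to this shared response if it had an adjusted p of at most 0.05 for treatment in an additive model of tissue plus treatment, was also tested in each tissue alone, and had the same sign in both. The adjusted p came from the edgeR quasi-likelihood test with Benjamini-Hochberg adjustment. Of 11158 genes tested, 87 (0.780%) were shared response genes, 19 (0.170%) higher and 68 (0.609%) lower in Sal-exposed birds.

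The libraries came from heart of Sal-exposed birds (n = 6), heart of control birds (n = 6), liver of Sal-exposed birds (n = 6) and liver of control birds (n = 5), 23 of 24 libraries in all. All birds were females from a commercial hatchery, sampled in week 13. Before the exposure period every bird was fed without Sal. Sal-exposed birds then received 21 mg Sal per kg feed, estimated at 0.9 mg per kg body weight daily, and control birds received feed without it until sampling. Liver control 3, which the study also left out, is not among them. It held 3729229 counts with 5226 genes detected. The labels give the birds no strain. Per the study's methods, heart and liver were taken from the same birds, 6 per treatment, but the labels do not say which heart and which liver belong together, and the p-values of the additive model treat the tissues as separate samples.

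Heart libraries held 23372118 to 35979378 counts in Sal-exposed birds and 25901080 to 30096962 in control birds. Liver libraries held 21028603 to 31305782 counts in Sal-exposed birds and 15706646 to 27338051 in control birds. Summed cardiomyocyte markers reached at least 9752 CPM in every heart and at most 25.9 CPM in every liver, and summed hepatocyte markers at least 178435 CPM in every liver and at most 239 CPM in every heart, so each tissue carried its own defining markers. CPM are counts scaled to a common library size with TMM factors. Among the libraries used, Sal-exposed heart 1 stood apart, with a cytosolic ribosomal protein sum of 79730 CPM. The other Sal-exposed hearts had 9050 to 23131 CPM and control hearts 7679 to 35307 CPM. Without Sal-exposed heart 1, 108 genes were shared, 64 of them among the 87. For summed mitosis genes, liver control 2 lay below and liver control 6 above the other control livers. Counts for these genes are given with and without each. Detected genes numbered 9268 to 11055 in the control livers used, with 9563 in control 2 and 9268 in control 4. Sal-exposed livers had 10918 to 11350. Mitochondrial genes took 48.3% to 86.9% of counts in Sal-exposed hearts and 58.5% to 84.4% in control hearts. In liver their share was 16.7% to 46.2% with Sal and 17.1% to 45.7% in controls. In bulk tissue, fewer cells of a type and less RNA per cell cannot be told apart.

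Most genes did not move together in the 2 tissues. Of 9484 genes tested in each tissue alone, 3290 (34.7%) had the same sign in heart and liver (39.1% of 9571 without Sal-exposed heart 1), and 116 (1.22%) also had an unadjusted edgeR p under 0.05 in each. The additive model passed 123 genes (1.10%), 32 (0.287%) higher and 91 (0.816%) lower, and 89 (0.798%) also changed by at least 1 on the log2 scale, 56 of them shared. Of these, 36 were too low in 1 tissue to be tested there and were not counted as shared, and 0 of the other 87 had opposite signs. The 87 were chosen by the additive test on these same libraries, so their counts in single tissues are a description. Among them, 67 had an unadjusted p under 0.05 in each tissue, 31 had an adjusted p of at most 0.05 in heart alone, 60 in liver alone and 15 in each tissue alone. Of all genes, 1.01% of those tested in heart alone and 14.3% of those tested in liver alone had such an adjusted p. The stricter demand that both tissue tests pass together, with adjustment over 9484 genes, was met by 1 gene (0.0105%), GYG2. That count was 0 without Sal-exposed heart 2 or without control heart 1, 2, 4, 5 or 6, and it was 5 with DESeq2 and 3 with limma-voom.

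**Figure D1:**
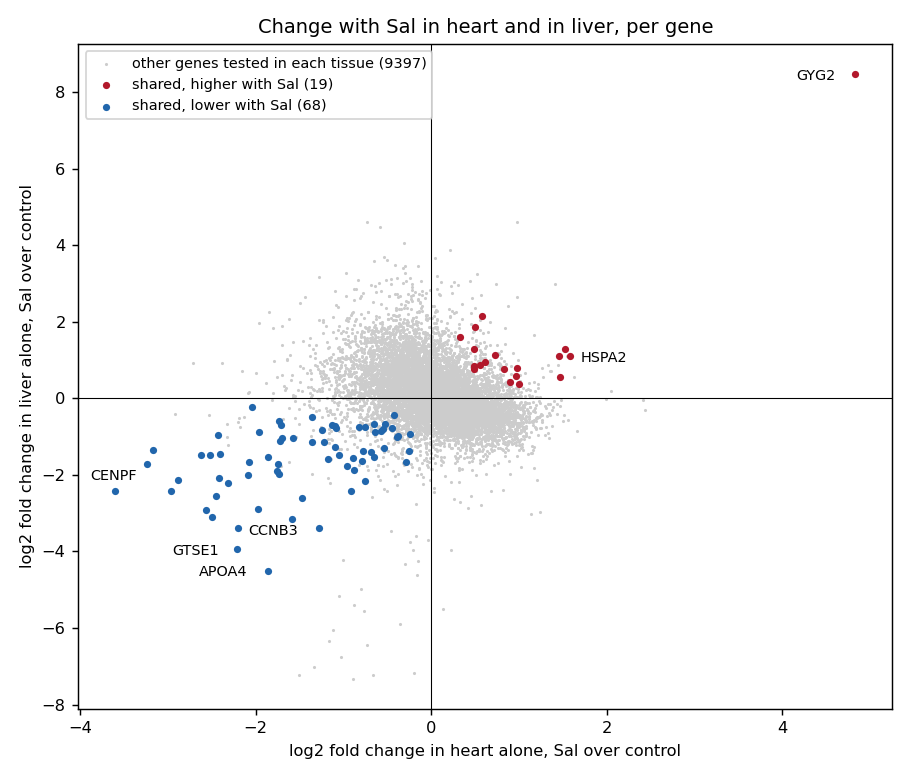
Each point is 1 gene tested in each tissue. The horizontal axis gives its log2 fold change in heart alone and the vertical axis that in liver alone, Sal over control; red points are the 19 shared genes higher with Sal, blue points the 68 lower, and grey points the other genes tested. The grey cloud slopes downwards, the blue points lie at the lower left, and GYG2 lies far from all others at 4.84 in heart and 8.46 in liver.

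The largest group of shared genes consisted of genes for the late cell cycle. Cells that prepare to divide turn on a wave of genes in the phase before mitosis (G2) and in mitosis itself (M), under transcription factors such as FOXM1 and B-MYB, and cyclin-bound CDK1 then drives entry into mitosis. In adult heart and liver few cells divide, so these transcripts are normally scarce. Of a list of 60 G2/M and mitosis genes, 41 were tested, 21 fell with Sal (0.816% of all genes did) and 0 rose, and all 21 were shared response genes. The list was chosen with earlier results of these data known. Its shares beside those of all genes are therefore a description, as are those of the other lists below. All 41 had a negative log2 fold change in the additive model, and 35 of the 38 tested in each tissue were negative in both, against 46.0% and 15.4% of all genes. Scarce genes can enter the fit through the control group alone, where they are high, so these signs are a description. The list's median log2 fold change was -1.73, with -2.09 in heart alone and -1.41 in liver alone, against 0.03, 0.02 and 0.03 over all genes tested. The 20 members that did not pass had values of -2.22 to -0.18. Of these, 15 had an unadjusted edgeR p under 0.05, where 12.2% of all genes had one. In heart alone 10 of the 20 had an adjusted edgeR p of at most 0.05, and in liver alone 0. Of all genes tested in heart alone and in liver alone, 1.01% and 14.3% had one.

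CDK1 (chromosome 8, 8972877 to 8979755 on Turkey_5.1) is the kinase that starts mitosis. It was the 1 shared response gene among 11 turkey genes chosen for RT-qPCR. The study chose CDK1 for heart only and reported that RT-qPCR there correlated with RNA-seq. As significantly changed in heart by RT-qPCR it named LCAT, DNA2 and ANLN, not CDK1. The primers designed for the CDK1 transcript are shown, 5′ to 3′ and in lower case throughout. They define the stretch by which CDK1 can be followed in other birds.
CDK1 forward: caggccaagtggttgcaatg
CDK1 reverse: tgcataagaacatcctgaagacaga

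In heart, CDK1 had 0.490, 1.53 and 3.40 CPM (lowest, median and highest) with Sal, against 5.63, 9.14 and 17.7 CPM in controls. In liver it had 0, 0.542 and 0.872 CPM with Sal, against 3.07, 0, 4.64, 4.20 and 13.9 CPM in the 5 controls. The heart groups did not overlap, while in liver control 2 had no CDK1 count and lay among the Sal-exposed birds. The additive log2 fold change of CDK1 was -2.81 ± 0.50 (SE) with an edgeR adjusted p of 0.00321.

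Cyclin B3 (CCNB3), a partner of CDK1, had 0.845, 1.14 and 2.55 CPM in Sal-exposed hearts, against 3.68, 6.79 and 10.1 CPM in control hearts. Sal-exposed livers had 0, 0.248 and 0.912 CPM of CCNB3, against 0.677, 2.13, 2.86, 5.05 and 11.5 CPM in control livers. Only liver control 1 fell within the Sal-exposed range. The additive change was -2.77 ± 0.44 (edgeR adjusted p = 0.00109), and the model of CCNB3 overlaps 1 other gene model. NEK2, a kinase that splits the centrosomes, had 1.02, 1.17 and 1.76 CPM in Sal-exposed hearts against 3.40, 4.33 and 6.55 CPM in control hearts, and 0.495, 0.678 and 2.18 CPM in Sal-exposed livers against 2.53, 2.41, 6.60, 2.46 and 4.50 CPM in control livers. NEK2 was the listed mitosis gene with the smallest additive p whose groups separated in both tissues, with a change of -1.86 ± 0.26 (edgeR adjusted p = 0.000434).

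**Figure D2:**
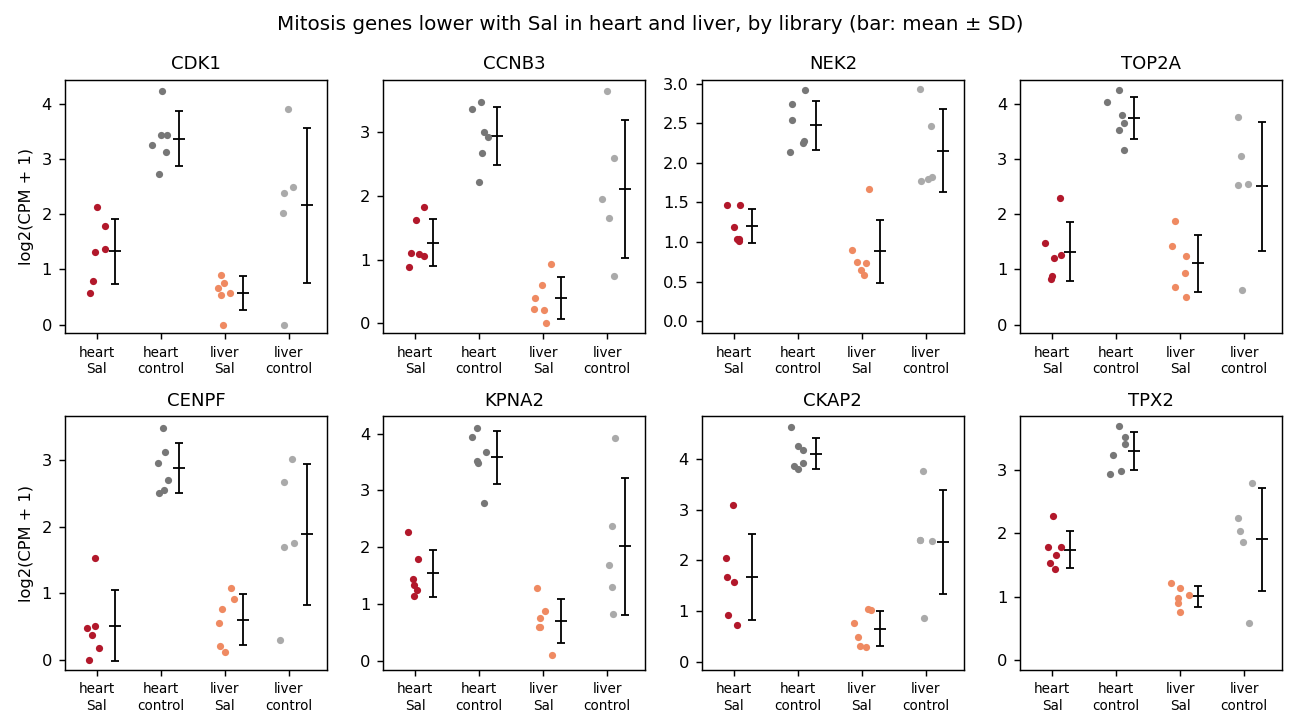
Each panel shows log2(CPM + 1) of 1 gene in every library, in the order Sal-exposed heart, control heart, Sal-exposed liver and control liver; points are libraries and bars give mean ± SD. In all 8 panels the Sal-exposed hearts lie under the control hearts, and in liver the lowest control point of every panel but CCNB3 is liver control 2.

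Genes that shape and separate chromosomes fell alongside. TOP2A, which untangles sister chromatids, had 0.770, 1.35 and 3.90 CPM in Sal-exposed hearts against 7.97, 12.2 and 18.0 CPM in control hearts. Its livers had 0.409, 1.14 and 2.66 CPM with Sal against 4.78, 0.545, 7.26, 4.87 and 12.6 CPM in controls, a group separation broken by liver control 2 alone. The change of TOP2A was -2.55 ± 0.38 (edgeR adjusted p = 0.000667). CENPF, a kinetochore protein, showed the strongest fall of the mitosis list at -3.03 ± 0.53 (edgeR adjusted p = 0.00272), with means of 0.521 ± 0.689 CPM in Sal-exposed hearts and 6.62 ± 2.11 CPM in control hearts (SD, n = 6 each), and of 0.567 ± 0.409 CPM (n = 6) in Sal-exposed livers and 3.47 ± 2.75 CPM (n = 5) in control livers. The condensin subunit SMC4 fell least of the 21, by 1.22 ± 0.29 on the log2 scale (edgeR adjusted p = 0.0334).

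Spindle genes made up much of the rest of the list. CKAP2, which promotes microtubule growth, fell by 2.75 ± 0.38 on the log2 scale with non-overlapping groups in heart (edgeR adjusted p = 0.000434). TPX2, which activates Aurora A on the spindle, fell by 1.73 ± 0.25 (0.000667), and the spindle protein NUSAP1 fell by 1.75 ± 0.30 (edgeR adjusted p = 0.00251). The mitotic kinesins KIF20A (-2.75), KIF4A (-2.28), KIF11 (-2.27) and KIF2C (-1.76) were all lower with Sal in the additive model. ASPM, a spindle pole protein, changed by -2.52, the centralspindlin subunit RACGAP1 by -2.30, HMMR by -2.03, INCENP of the chromosomal passenger complex by -1.48 and DLGAP5 by -1.43. Models of CKAP2, TPX2 and RACGAP1 overlap 1 other gene model each, and those of HMMR, INCENP and DLGAP5 overlap 2. The sources used here do not say if reads were counted by strand, so the values of these genes may include reads of their neighbours.

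GTSE1, a microtubule-bound protein of the G2 phase, was the other listed mitosis gene whose groups did not overlap in heart nor in liver. It had 0.105, 0.674 and 1.38 CPM in Sal-exposed hearts against 2.22, 3.06 and 5.37 CPM in control hearts. Sal-exposed livers had 0, 0.0339 and 0.159 CPM, against 2.60, 0.727, 2.67, 1.92 and 1.72 CPM in control livers. GTSE1 changed by -2.99 ± 0.44 in the additive model (edgeR adjusted p = 0.000667), by -2.22 in heart alone and by -3.94 in liver alone, and the difference between tissues had an adjusted p of 0.0197. KPNA2, an importin that carries cargo into the nucleus, fell by 2.53 ± 0.39 on the log2 scale (edgeR adjusted p = 0.00109). FOXM1, the transcription factor of many G2/M genes, lay just inside the threshold at -2.13 ± 0.54 (edgeR adjusted p = 0.0493). It had 0.350, 0.561 and 1.01 CPM in Sal-exposed hearts against 2.76, 3.84 and 6.08 CPM in control hearts, while its liver groups overlapped, with 0, 0.260 and 0.793 CPM with Sal and 1.14, 0, 0, 0.670 and 3.17 CPM in controls.

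Summed over the 41 tested genes, the list reached 57.5, 72.4 and 134 CPM in Sal-exposed hearts, against 239, 275 and 385 CPM in control hearts, with no overlap. In Sal-exposed livers the sum was 43.0, 51.9 and 67.8 CPM, against 93.0, 42.3, 123, 121 and 248 CPM in controls 1, 2, 4, 5 and 6. Liver control 2 lay below the whole Sal-exposed range, and the other 4 controls lay above it. It was the lowest control for 17 of the 21 shared members (81.0%), where it was lowest for 25.6% of all genes tested. Liver groups did not overlap for 3 of the 21 members with that library and for 12 without it, against 9.72% and 16.4% of all genes. Heart groups did not overlap for 19 of the 21, against 2.71% of all genes. The members were selected on these same libraries, so these counts are a description. Without liver control 2 the shared response held 124 genes, and 30 list members passed. Liver control 6 had the highest sum of the controls, at 248 CPM. Without it the shared response held 83 genes, 67 of them among the 87, and 19 list members passed.

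**Figure D3:**
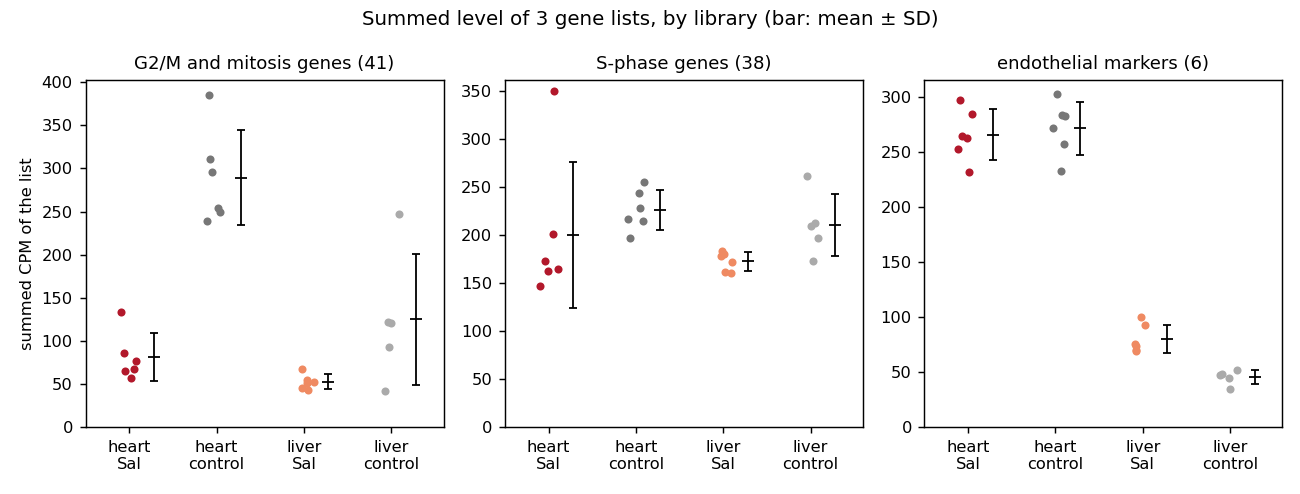
Summed CPM of the G2/M and mitosis list (41 genes), the S-phase list (38 genes) and 6 endothelial markers in every library; points are libraries and bars give mean ± SD. Mitosis sums separate in heart, S-phase sums overlap in both tissues, and endothelial sums separate in liver with the Sal-exposed birds higher.

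DNA replication genes, which act in S phase before mitosis, showed smaller changes. Of 52 S-phase genes listed, 38 were tested, 2 fell (5.26%, where 0.816% of all genes did) and 0 rose. The member that was also shared was RRM2. RRM2, a subunit of the enzyme that makes deoxyribonucleotides, had 0.280, 0.788 and 1.83 CPM in Sal-exposed hearts against 3.14, 5.13 and 6.64 CPM in control hearts. In liver the groups overlapped, with 0.0807, 0.372 and 1.15 CPM with Sal and 1.28, 0, 1.87, 0.983 and 2.94 CPM in controls. Its additive change was -1.99 ± 0.47 (edgeR adjusted p = 0.0324). DNA2, a helicase and nuclease of replication, changed by -2.70 (edgeR adjusted p = 0.00109) but was too low in liver to be tested there. The list's median was -0.34, with -0.59 in heart alone and -0.29 in liver alone. Of 34 members tested in each tissue, 14 (41.2%) were negative in both and 0 positive in both, against 15.4% and 19.3% of all genes.

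Beyond both cell cycle lists, 46 further shared genes were lower with Sal, 29 of them with a symbol, with a median log2 fold change of -1.16 and a range of -3.29 to -0.45. Several of these also serve chromosome segregation or DNA work. KNSTRN, a kinetochore protein, fell by 1.88 ± 0.35 on the log2 scale (edgeR adjusted p = 0.00405), although its groups overlapped in both tissues. Named after their values were seen, the ubiquitin ligase TRAIP of DNA repair changed by -2.32, HJURP, which loads the centromere histone, by -1.48, CEP135 of the centriole by -1.39, WDHD1 of the replication fork by -1.23 and the helicase BRIP1 by -0.80. STMN1, which destabilises microtubules, had 17.1, 18.8 and 33.4 CPM in Sal-exposed hearts against 24.7, 38.2 and 71.1 CPM in control hearts. In liver it had 1.71, 2.85 and 3.47 CPM with Sal against 6.84, 6.45, 11.1, 11.7 and 16.2 CPM in controls. STMN1 groups separated in liver but not in heart, with an additive change of -1.37 ± 0.21 (edgeR adjusted p = 0.00109).

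COL6A2, a chain of the microfibrillar collagen VI, was the extracellular matrix gene of the shared response. It had 21.1, 70.5 and 83.7 CPM in Sal-exposed hearts, against 101, 163 and 240 CPM in control hearts. Sal-exposed livers had 5.002, 11.3 and 18.9 CPM, against 26.3, 40.1, 21.4, 28.9 and 22.4 CPM in control livers. The groups did not overlap in heart nor in liver, and the change was -1.28 ± 0.23 (edgeR adjusted p = 0.00332). Of 51 matrix genes tested, COL6A2 was the 1 that passed (1.96%, where 1.10% of all genes did). The list's median was -0.69 in heart alone and 0.51 in liver alone, and 36 of 45 members had opposite signs, as had 65.3% of all genes.

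The shared response held 1 gene of the list of cation pumps, exchangers and sensors. ATP2B1, a calcium pump of the plasma membrane, had 2.00, 3.21 and 4.48 CPM in Sal-exposed hearts against 4.25, 5.15 and 6.23 CPM in control hearts, and 15.1, 19.6 and 29.2 CPM in Sal-exposed livers against 33.0, 31.1, 25.3, 36.5 and 41.9 CPM in control livers. The ranges overlapped slightly in each tissue, and the change was -0.68 ± 0.16 (edgeR adjusted p = 0.0284). Of the 13 list members tested, ATP2B1 was the 1 that passed, where 1.10% of all genes did. LETM1, a mitochondrial inner membrane protein of cation exchange that was named after its values were seen, changed by -0.78 ± 0.19 (edgeR adjusted p = 0.0451).

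The largest fall of the shared response was that of APOA4, an apolipoprotein of lipid transport. Sal-exposed livers had 192, 282 and 471 CPM, against 4093, 4094, 1922, 6135 and 18937 CPM in control livers. Hearts had 0.0980, 0.538 and 0.970 CPM with Sal, against 0.649, 0.971 and 8.13 CPM in controls. The liver groups did not overlap and the heart groups did, at a level close to 1 CPM. The 8.13 CPM came from control heart 6, and the next highest control heart had 1.28 CPM. The change of APOA4 was -3.29 ± 0.55 in the additive model (edgeR adjusted p = 0.00194), -1.86 in heart alone and -4.51 in liver alone.

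APOA4 is also a marker of enterocytes, and the 9 tested enterocyte markers summed to 385 to 630 CPM in Sal-exposed livers, against 2111 to 19111 CPM in control livers. Without APOA4 the remaining 8 markers summed to 140 to 241 CPM in Sal-exposed livers and 173 to 5218 CPM in control livers, with overlap. Their highest values were 5218 CPM in liver control 1 and 1133 CPM in liver control 5. ANXA13, an annexin found in gut epithelium, was highest in liver control 1 too, with 2.27, 3.34 and 4.58 CPM in Sal-exposed livers against 145, 1.77, 13.3, 14.9 and 8.22 CPM in control livers. Its additive change was -2.49 ± 0.58 (edgeR adjusted p = 0.0284), and -1.38 without liver control 1, where it no longer passed. With the summed enterocyte markers as a covariate, 50 genes were shared, 25 of them among the 87, and 14 of the 41 mitosis genes passed. APOA4 is part of that sum, which also separates Sal-exposed from control livers, so in liver the covariate and the treatment cannot be told apart and a call lost in that fit is not read as a smaller effect. The change of APOA4 itself was -1.07 there. Those of CDK1 (-2.16), CCNB3 (-1.96) and COL6A2 (-1.27) did not pass, and CENPF (-3.38), KIF4A (-2.89), GTSE1 (-2.66) and NEK2 (-2.06) passed by edgeR.

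FOXP1, a forkhead transcription factor, had 7.62, 12.8 and 21.3 CPM in Sal-exposed livers against 49.02, 29.6, 43.3, 45.3 and 35.6 CPM in control livers. In heart its level was lower, with 0.546, 3.37 and 6.28 CPM with Sal against 3.61, 6.39 and 7.96 CPM in controls. Liver groups separated and heart groups overlapped, with an additive change of -1.24 ± 0.26 (edgeR adjusted p = 0.0143). NT5C2, a cytosolic nucleotidase, was 1 of 7 shared genes whose ranges separated in both tissues, where 8 of all genes tested did (0.0717%), and its change was modest at -0.63 ± 0.15 (edgeR adjusted p = 0.0338). The other 6 were GYG2, NEK2, GTSE1, COL6A2 and 2 genes without a symbol. Of the remaining lower genes with a symbol, ELMO3 (-0.98), CPSF2 (-0.60) and ANP32A (-0.82) fell more in liver than in heart, with adjusted p for the difference between tissues of 0.00534, 0.0435 and 0.0212. The groups of these genes separated in liver and overlapped in heart.

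Shared genes that rose with Sal numbered 19, 15 of them with a symbol. Apart from GYG2 their log2 fold changes lay between 0.59 and 1.39, with a median of 0.85. Of the 19, 18 had an unadjusted edgeR p under 0.05 in each tissue, where 1.22% of all genes tested in each had one with the same sign. With adjustment, 15 of the 19 passed in liver alone and 2 in heart alone, where 14.3% and 1.01% of all genes tested did. The 19 were selected on these same libraries, so these counts are a description. The number of shared rising genes depended on how libraries were scaled. With TMM factors 19 of 87 shared genes were higher, with library size alone 1 of 65 (GYG2), and with mitochondrial genes left out of the scaling 32 of 80. The median log2 fold change of all genes was 0.03, -0.10 and 0.11 in these fits, and the sign of the 14 named rising genes did not turn in any of them.

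GYG2 (chromosome 1, 127067631 to 127078412), a glycogenin that primes glycogen synthesis in humans, showed the largest rise. Sal-exposed hearts had 112, 187, 91, 38, 43 and 62 counts, and control hearts had 0, 0, 6, 1, 5 and 0. Sal-exposed livers had 844, 521, 780, 455, 948 and 1026 counts, and none of the 5 control livers had a count. The groups did not overlap in either tissue, and liver control 3, which was left out, also had a count of 0. Sal-exposed livers averaged 27.4 ± 8.12 CPM (SD, n = 6), at least 200.1-fold higher than a floor of 3 counts in each control library. In heart the means were 3.73 ± 2.24 CPM with Sal and 0.0680 ± 0.101 CPM in controls (SD, n = 6 each). The fitted log2 change was 6.38 ± 0.56 in the additive model (edgeR adjusted p = 1.63e-07), 4.84 in heart alone and 8.46 in liver alone, and depends on the prior count where controls had none. The difference between tissues had an adjusted p of 0.00802.

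**Figure D4:**
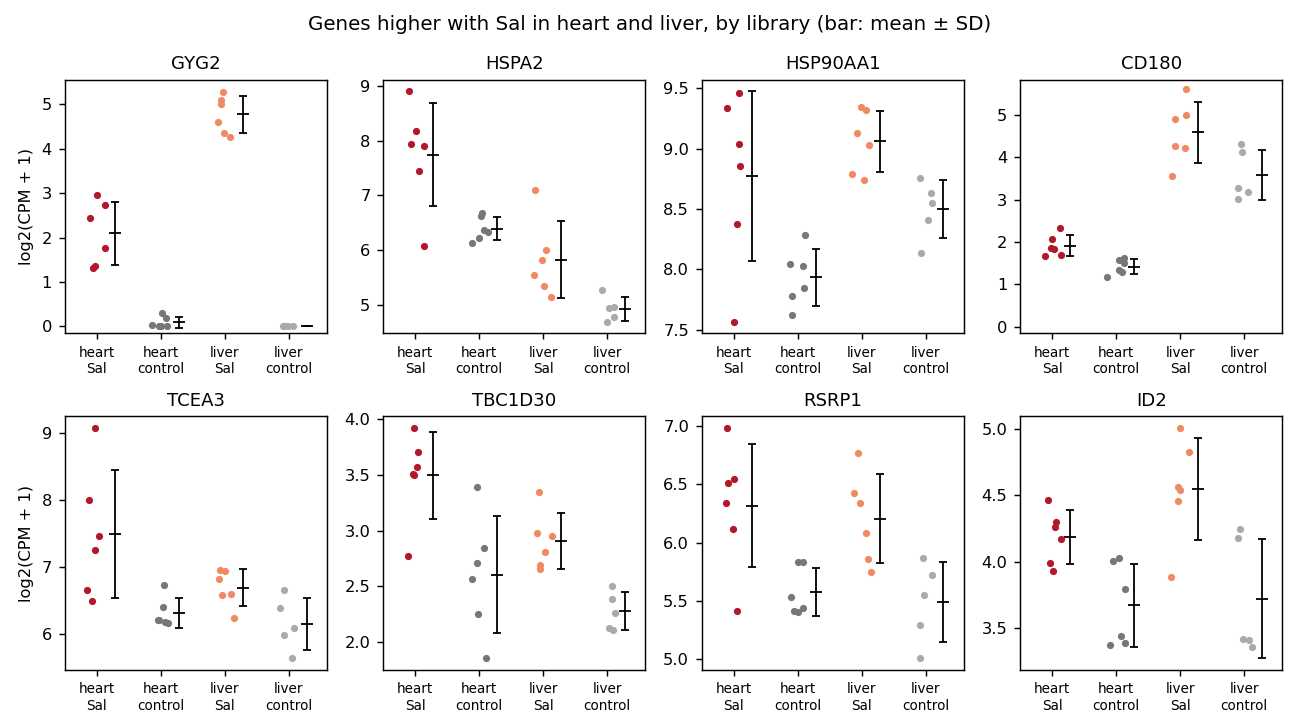
Each panel shows log2(CPM + 1) of 1 gene in every library, in the order Sal-exposed heart, control heart, Sal-exposed liver and control liver; points are libraries and bars give mean ± SD. GYG2 is at or close to 0 in every control library, while for HSPA2, HSP90AA1, TCEA3, RSRP1 and ID2 the groups overlap in each tissue.

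Chaperones came next. HSPA2, of the HSP70 family, had 66.8, 241 and 479 CPM in Sal-exposed hearts against 69.1, 80.8 and 102 CPM in control hearts. Sal-exposed livers had 34.5, 50.5 and 137 CPM, against 29.98, 29.8, 37.4, 26.4 and 24.9 CPM in control livers. In heart all Sal-exposed birds but the lowest lay above the controls, and in liver the groups overlapped slightly, with an additive change of 1.33 ± 0.25 (edgeR adjusted p = 0.00537).

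HSP90AA1, the stress-inducible HSP90, had 189, 494 and 703 CPM in Sal-exposed hearts against 196, 244 and 310 CPM in control hearts. Livers had 426, 542 and 650 CPM with Sal against 374, 280, 432, 339 and 396 CPM in controls. The groups overlapped in both tissues, and the change was 0.77 ± 0.19 (edgeR adjusted p = 0.0478). Of 13 heat shock genes tested, HSPA2 and HSP90AA1 rose (15.4%, where 0.287% of all genes did) and 0 fell. The list's median was 0.05 in the additive model, 0.44 in heart alone and 0.07 in liver alone, and the 11 other members ranged from -0.15 to 1.13.

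The other rising genes with a symbol had varied roles. TCEA3, a transcription elongation factor, changed by 1.01 ± 0.25 (edgeR adjusted p = 0.0478), with a highest value of 536 CPM in Sal-exposed heart 1 against 106 CPM in the highest control heart. RSRP1, an arginine- and serine-rich protein, changed by 0.78 ± 0.17 (0.0180), and TBC1D30, of a family that acts on Rab GTPases, by 0.87 ± 0.19 (edgeR adjusted p = 0.0197). ID2, an inhibitor of helix-loop-helix transcription factors, had 14.2, 17.6 and 21.1 CPM in Sal-exposed hearts against 9.32, 11.3 and 15.3 CPM in control hearts, and 13.7, 22.5 and 31.2 CPM in Sal-exposed livers against 18.0, 9.63, 9.65, 17.1 and 9.22 CPM in control livers. Both tissues overlapped for ID2, whose change was 0.68 ± 0.16 (edgeR adjusted p = 0.0350). CD180, a Toll-like receptor relative of B cells and macrophages, changed by 0.91 ± 0.22 (edgeR adjusted p = 0.0414). The summed B or plasma cell markers were 26.5 to 51.5 CPM in Sal-exposed livers and 33.7 to 68.8 CPM in control livers, and 2.18 to 6.80 CPM in Sal-exposed hearts and 0.996 to 3.52 CPM in control hearts. Macrophage or myeloid markers summed to 691 to 1402 CPM in Sal-exposed livers and 442 to 1047 CPM in control livers, and to 211 to 675 CPM in Sal-exposed hearts and 196 to 360 CPM in control hearts. All 4 pairs of ranges overlapped, and the part of these cells in the change of CD180 was not tested.

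Mitochondrial thiolase ACAA2, which acts in fatty acid oxidation, had 308, 342 and 508 CPM in Sal-exposed hearts against 178, 202 and 224 CPM in control hearts. In liver it had 165, 214 and 254 CPM with Sal against 135, 181, 170, 150 and 188 CPM in controls. Its heart groups separated and its liver groups overlapped, with a change of 0.65 ± 0.15 (edgeR adjusted p = 0.0224). MGAT4B of N-glycan branching (0.68) and CDKAL1 of transfer RNA modification (0.63) also rose, and like ACAA2 were named after their values were seen.

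NUAK1, a kinase related to AMPK, had 24.2, 27.4 and 31.3 CPM in Sal-exposed livers against 4.88, 11.6, 12.5, 5.40 and 11.6 CPM in control livers, with no overlap. Hearts had 32.7, 39.98 and 49.7 CPM with Sal against 29.0, 33.6 and 36.1 CPM in controls, with overlap. NUAK1 changed by 0.33 in heart alone and 1.60 in liver alone, a difference with an adjusted p of 0.00574, and by 0.90 ± 0.20 in the additive model (edgeR adjusted p = 0.0226). LDB2, a LIM domain binding protein expressed in endothelium, changed by 0.84, and AMOTL2, an angiomotin relative at cell junctions, by 0.59. The 6 endothelial markers tested summed to 69.7 to 99.9 CPM in Sal-exposed livers and 35.2 to 51.7 CPM in control livers, with no overlap, and to 232 to 298 CPM in Sal-exposed hearts and 233 to 303 CPM in control hearts. The part of these markers in the rise of NUAK1, LDB2 and AMOTL2 in liver was not tested.

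Of the gene lists for other responses, the fasting list had 1 gene of 15 tested that passed (6.67%, where 1.10% of all genes did). That gene was PCK1 of glucose synthesis, which fell but was not tested in heart. No member passed among 15 circadian clock genes, 9 glucocorticoid-induced genes, 19 lipogenesis and cholesterol genes, 16 unfolded protein and integrated stress response genes, 10 immediate-early genes, 14 p53 target genes, 15 antioxidant and NRF2 target genes, 26 autophagy and lysosome genes, 12 interferon-response genes or 10 cytochrome P450 genes tested with edgeR. Together with 4 lists for energy and protein turnover, these 14 lists held 325 entries tested, with a few genes counted in more than 1 list. Of the 325 entries, 22 had an unadjusted edgeR p under 0.05, where 12.2% of all genes had one. DESeq2 passed 8 of the 325, DESeq2 with surrogate variables 22 and limma-voom with quality weights 10. Over all 11158 genes tested, these 3 fits passed 400, 1038 and 574. Lists for energy and protein turnover had medians of opposite sign in the 2 tissues, but the heart medians depended on Sal-exposed heart 1 and control heart 3. All 52 cytosolic ribosomal protein genes had opposite signs, with a median of 0.88 in heart alone and -0.47 in liver alone, as had 53 of 57 mitochondrial ribosomal proteins, 42 of 44 nuclear oxidative phosphorylation genes and 24 of 26 proteasome subunits, against 65.3% of all genes. Without Sal-exposed heart 1, a setting added after seeing the data, the heart median was -0.03 for cytosolic ribosomal proteins and -0.02 for oxidative phosphorylation. It was 0.22 for mitochondrial ribosomal proteins and 0.26 for proteasome subunits. In that fit 22 of 52 cytosolic ribosomal genes and 22 of 44 oxidative phosphorylation genes had opposite signs. So had 48 of 57 mitochondrial ribosomal proteins and 23 of 26 proteasome subunits, against 60.9% of all genes. With control heart 3 also left out, the cytosolic ribosomal median was 0.64. Opposite signs then numbered 52 of 52, 40 of 44, 53 of 57 and 24 of 26 in that order, against 63.9% of all genes. The oxidative phosphorylation sum was 36123 CPM in Sal-exposed heart 1, against 7536 to 15629 CPM in the other Sal-exposed hearts and 7375 to 17474 CPM in control hearts.

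Immediate-early genes had medians of 0.68 in heart alone and 0.44 in liver alone, with 4 of 9 members positive in both tissues and 0 negative in both, where 19.3% and 15.4% of all genes were.

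**Figure D5:**
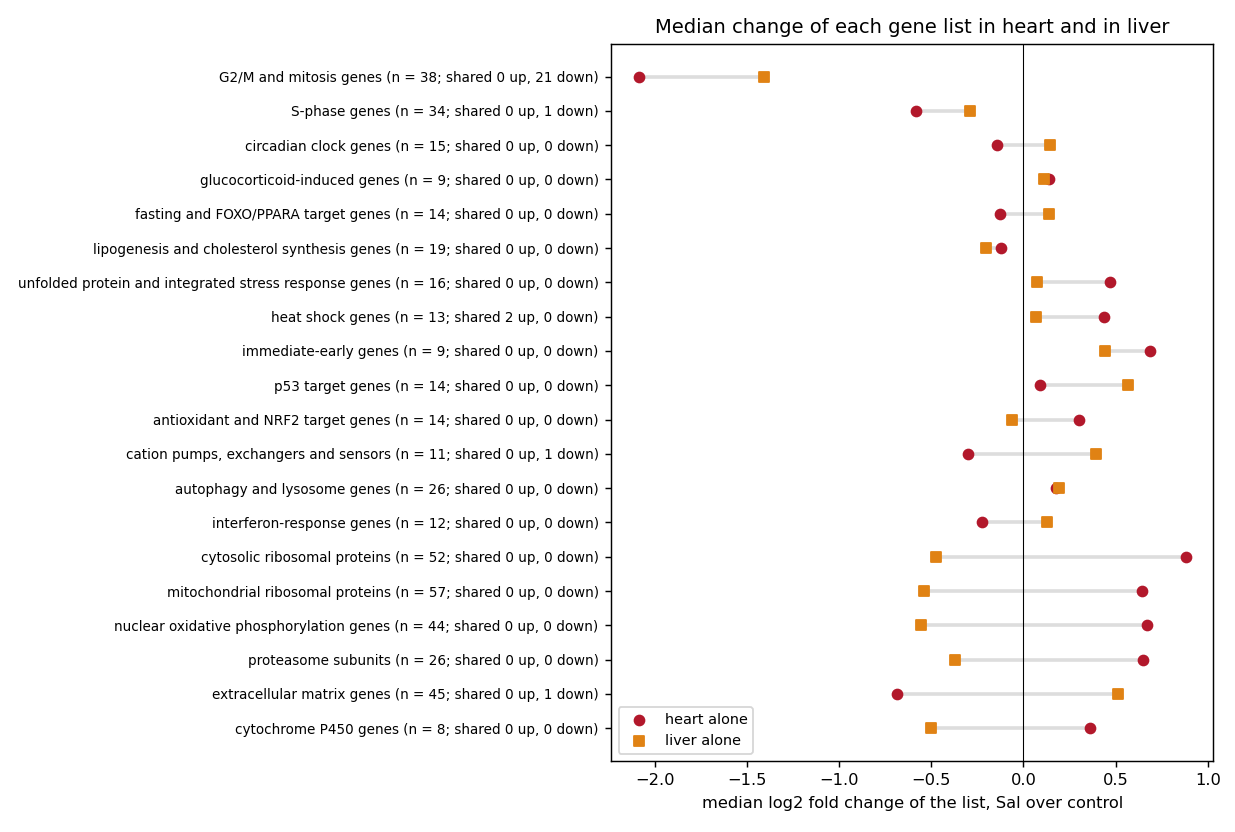
For each gene list, the red circle gives the median log2 fold change in heart alone and the orange square that in liver alone, Sal over control; n is the number of genes tested in each tissue, followed by how many were shared response genes. The G2/M and mitosis list lies farthest from 0 in both tissues (-2.09 and -1.41), and the cytosolic ribosomal proteins lie on opposite sides (0.88 and -0.47; the heart value is -0.03 without Sal-exposed heart 1).

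Size differed between tissues for a minority of the shared genes. The change was larger in heart for 39 and in liver for 48, and 9 of the 87 had an adjusted p of at most 0.05 for the difference between tissues. Of all genes 18.5% did, but the demand for a common sign leaves out genes with opposite changes, so nothing is read from that contrast. Among the 9 were GYG2 and NUAK1, which rose more in liver, GTSE1, which fell more in liver, and KIF4A, which fell more in heart (-3.17 against -1.35 in liver). Of the 11 genes, each chosen for RT-qPCR in 1 tissue, 10 were not shared. Among them were ADCY5, COL4A6, LCAT and RPL22L1, whose changes differed between tissues. At the threshold, FOXM1 and a gene without a symbol (-0.93, adjusted p = 0.0493) lay just inside, and AADAT of tryptophan breakdown (0.58, adjusted p = 0.0509) just outside, all by edgeR.

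The number of shared genes moved with single libraries. Leaving out 1 library at a time gave 46 to 124 shared genes, and the count moved by more than 1.5 times without Sal-exposed heart 5 (56), Sal-exposed livers 2 (51), 3 (47), 4 (55) or 5 (46), or control hearts 1 (57) or 2 (57). With the same libraries left out, 18 to 30 mitosis genes passed. From the 87 shared genes, 45 to 81 were kept in these fits. Of the 24 lower genes tracked by name, 18 passed in all 23 such fits. Of the 14 higher genes tracked 7 did, among them GYG2, HSPA2 and ACAA2. The tracked genes were mostly chosen for a small p or a large change in these same data, so these counts are a description. HSP90AA1 passed in 6 of 23, FOXM1 in 3, LETM1 in 4, RRM2 in 9, ATP2B1 in 12 and ANXA13 in 13. Other rising genes that failed in some fits were TCEA3 and AMOTL2 (passed in 7), CD180 and CDKAL1 (9), ID2 (11) and MGAT4B (14).

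With same-numbered heart and liver taken as 1 bird and their log2 CPM averaged, limma on the 11 averages did not pass CDK1 (-2.39, adjusted p = 0.0611), KIF20A, FOXM1, RRM2 or ANXA13 among the falling genes named, nor HSPA2 (1.11, adjusted p = 0.0534), HSP90AA1, ID2, CD180, CDKAL1 or AMOTL2 among the rising ones. CENPF, CKAP2, GTSE1, KIF4A, NEK2, NUSAP1, TOP2A, TPX2, COL6A2, APOA4 and GYG2 passed. The numbers are not known to mark birds.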

How the data were processed

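Heart and liver mRNA libraries were sequenced in read pairs on an Illumina NovaSeq instrument. Per the methods of the authors, reads were trimmed with fastp, aligned with STAR to Turkey_5.1 with Ensembl gene models and counted with RSEM. The deposited table holds RSEM expected counts rounded to whole numbers by the authors for 11587 genes. Of its 36 columns, 24 matched a sample and 12 were not used. The other deposited tables hold the authors' own DESeq2 comparisons, of which only gene positions, names and types were used. Symbols came from these tables for 4985 genes and from RefSeq genes of the same assembly, with at least 50% overlap of both spans, for 3509; 3093 genes kept their identifier.

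Groups were taken from the sample titles. Counts were fitted in R 4.3.3 with edgeR 4.0.16 (TMM factors, filterByExpr over the 4 groups, robust quasi-likelihood F test, prior count 2, Benjamini-Hochberg adjustment over all 11158 genes tested) as tissue plus treatment, in each tissue alone, and with a tissue by treatment term. Log2 fold changes are Sal over control, with standard errors (SE) from the F statistic, and tests are two-sided. For a change in both tissues together, the larger of the 2 tissue p-values was used. Scripts were tested on simulated data. The study used DESeq2 with surrogate variables from sva in each tissue, thresholds of adjusted p 0.05 and log2 fold change 1. Of the 87 shared genes, 56 reached a log2 fold change of 1 in size. DESeq2 1.42.0, sva 3.50.0, limma 3.58.1, other scalings, filters, blocks, a covariate and left-out libraries were tried as alternatives. Named were, per direction, the 8 shared genes with the smallest larger tissue p and the 6 with the largest change, among those with a symbol and at least 1 CPM in each tissue, up to 4 per list, the RT-qPCR genes and those nearest the threshold. Other members named were chosen after their values were seen. Members and lists were chosen with earlier results of these data known. The primers are the study's own design. No promoter sequence was used here. Some genes the rule selects are not reported here.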

Additional observations from a re-analysis of the deposited data

Results flagged for a closer look

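Within groups of 5 or 6 libraries, 1 library lay far from the others, by Dixon's test at the 95% level, in 25 of 200 groups of named genes. For normally distributed values, chance gives about 1 in 20 groups. The values tested were CPM not on a log scale, where this rate need not hold, so 25 is not read as an excess.

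Sal-exposed heart 1 was high for TCEA3 (536 CPM, the nearest other 256), RPL22L1 (64.8, the nearest 12.9), KNSTRN (3.40, the nearest 1.33), ANXA13 (0.910, the nearest 0.333) and PCK1 (1.09, the nearest 0.273). Sal-exposed heart 4 was high for 4 mitosis genes, TOP2A (3.90, the nearest 1.79), CKAP2 (7.49, the nearest 3.14), TPX2 (3.84, the nearest 2.45) and CENPF (1.89, the nearest 0.424). Control heart 2 was high for LDB2 (41.4, the nearest 29.998) and LETM1 (14.0, the nearest 10.4), and control heart 3 for CDK1 (17.7, the nearest 9.87), STMN1 (71.1, the nearest 41.8) and RPL22L1 (30.5, the nearest 6.87). Control heart 6 was high for APOA4 (8.13, the nearest 1.28) and PCK1 (2.33, the nearest 0.830).

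Among Sal-exposed livers, number 1 was high for NEK2 (2.18, the nearest 0.861), number 5 for HSPA2 (137, the nearest 63.3) and number 6 for RPL22L1 (6.95, the nearest 3.40). Liver control 1 was high for ANXA13 (145, the nearest 14.9) and ADCY5 (2.17, the nearest 0.625). Liver control 2 was low for NUSAP1 (0.636, the nearest 3.796), liver control 4 was high for AMOTL2 (17.3, the nearest 11.7), and liver control 6 for APOA4 (18937, the nearest 6135) and KPNA2 (14.1, the nearest 4.17).

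The Sal change differed between tissues for 12 of 50 named genes by the edgeR interaction test, where 18.5% of all genes tested did. Genes chosen for RT-qPCR were picked by the study for 1 tissue each, so nothing is read from that contrast. Of the shared genes, the log2 fold change in liver minus that in heart was 3.77 for GYG2 (adjusted p = 0.00802), 1.26 for NUAK1 (0.00574), 1.79 for KIF4A (0.0319) and -1.82 for GTSE1 (0.0197). Of the genes measured by RT-qPCR, the difference was 5.39 for COL4A6 (adjusted p = 0.000126), 3.31 for ANLN (0.0242), 3.19 for ADCY5 (0.00659), 2.95 for KNTC1 (0.0467), 2.19 for AFAP1 (0.0478), -2.74 for LCAT (0.000142), -2.82 for RPL22L1 (0.0230) and -6.23 for PCK1 (0.000402).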

How the results depend on the processing

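The shared response (87 genes, 19 higher) held 81 genes (20 higher) with DESeq2 size factors, 65 (1 higher) with library size alone and 80 (32 higher) with nuclear genes only. It held 143 without a filter on low counts, 44 with liver control 3 included, 301 with DESeq2, 696 with DESeq2 and surrogate variables, 279 with limma-voom and quality weights, 286 with 4 group means, 50 with the enterocyte covariate and 56 when a log2 change of 1 or more was required. Of the 87, 87 were among the 301, 85 among the 696, 81 among the 279 and 42 among the 44. With library size alone 50 of the 87 were kept, with nuclear genes only 65 and with the covariate 25. The additive model passed 123 genes in the edgeR fit reported, 68 with liver control 3 included, 400 with DESeq2, 1038 with surrogate variables, 574 with limma-voom and 523 with 4 group means. Of the G2/M and mitosis list 21 genes passed, against 34 with surrogate variables, 35 with limma-voom and 14 with the covariate. Of the S-phase list 2 passed, against 1 with liver control 3 included, 5 with DESeq2, 12 with surrogate variables, 15 with limma-voom, 4 with 4 group means and 0 with the covariate. The count changed in both tissues was 1, against 5 with DESeq2, 3 with limma-voom and 116 without adjustment. The difference between tissues passed 2060 genes, against 1161 with liver control 3 included. The cause of these changes was not tested.

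Leaving out 1 library at a time gave 70 to 181 genes in the additive model, 46 to 124 shared, 18 to 30 of the G2/M list, 1 to 3 of the S-phase list, 0 to 1 changed in both tissues and 1568 to 2563 with a difference between tissues. GYG2 lost its joint call without Sal-exposed heart 2 or control hearts 1, 2, 4, 5 or 6.

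With the library number as a replicate block, 48 genes passed the additive model, 32 were shared (31 of the 87), 17 of the G2/M list and 1 of the S-phase list passed, and 1536 differed between tissues. With same-numbered heart and liver as a random replicate block by bird the counts were 471 and 298 (85 of the 87). That fit used limma-voom, and its estimated correlation within a block was negative, at -0.21. A negative correlation makes this test less strict, so the larger counts are not read as a stronger response. With the sums of same-numbered heart and liver the counts were 207 and 138 (67 of the 87). Same-numbered heart and liver deviated from their group means with r of -0.39 to 0.19 (3 of 11 pairs over 0.1, 2 of 11 highest with their own number). Same-numbered Sal and control libraries did so with r of -0.46 to 0.16 (1 of 11 over 0.1, 1 of 11 highest with their own number). Heart and liver of 1 bird need not deviate together, so these values cannot tell if the numbers mark birds.

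Signs turned for genes outside the shared response: SDHA (0.03) with library size alone (-0.10) and on leaving out a library (-0.0037 to 0.133), CASR with surrogate variables (-0.09), RPL22L1 with limma-voom (0.40) and the covariate (0.48), and COL4A6 with the covariate (-0.056). With Sal-exposed heart 1 left out, a choice made after seeing the data, the heart median was -0.033 for cytosolic ribosomal proteins (0.88 with it, 1.61 without control heart 3) and -0.018 for oxidative phosphorylation genes (0.67 with it, 1.03 without control heart 3).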
